A study of Stenocereus queretaroensis with 6 samples.

Results

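Transcripts of 5 wall-modifying families were followed in *Stenocereus queretaroensis*, a columnar cactus grown for its fruit: the xyloglucan endotransglucosylase/hydrolases (XTHs), expansins, endoglucanases, beta-galactosidases and alpha-xylosidases. Members were the assembled transcript clusters whose best Swiss-Prot protein hit carries any of these names in its description. The rule found 318 of 170970 clusters, which fall on 78 Swiss-Prot proteins: 54 XTH clusters, 51 expansin clusters, 66 endoglucanase clusters, 142 beta-galactosidase clusters and 5 alpha-xylosidase clusters. RNA was sequenced from suspension cells, which are plant cells that multiply in shaken liquid medium. The cells grew on MS medium, a salt base in common use for plant tissue culture, with 3% sucrose (3 libraries) or 8% sucrose (3 libraries). No genotype, treatment or harvest time other than the sucrose supply is given, and the letters in the sample titles, Y for every library at 3% sucrose and R for every library at 8% sucrose, are not explained. Whether the 3 libraries per medium are from independent cultures is not stated. The p-values therefore reflect the spread among these 6 samples alone, and that spread may be technical. In bulk RNA, fewer cells of a type and less RNA per cell cannot be told apart, and this holds for every level below.

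The primary wall of a growing plant cell is a network of cellulose microfibrils held in xyloglucan and pectin. XTHs cut a xyloglucan chain and join the cut end to another chain or to water. Expansins loosen the contact between cellulose and other glucans without cutting them and work best in an acid wall. Plant endoglucanases of glycoside hydrolase family 9 cut glucan chains and include the membrane-anchored KORRIGAN enzyme that cellulose synthesis needs. Beta-galactosidases and alpha-xylosidases trim galactose and xylose from the ends of wall polysaccharides and of the fragments released from them.

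The XTH transcripts together were more abundant at 8% sucrose, and the summed levels of the other 4 families were lower, with the endoglucanases differing least. Levels are given in CPM, that is counts relative to the TMM-adjusted total of each library. Summed over all their clusters, XTHs reached 1444, 1243 and 1231 CPM at 3% sucrose and 3147, 2809 and 2427 CPM at 8% sucrose. The 3 libraries at 8% sucrose all lay above the 3 at 3% sucrose, with a ratio of means of 2.14. Expansins summed to 1223, 1233 and 1181 CPM at 3% sucrose and 584, 587 and 545 CPM at 8% sucrose, and the media did not overlap. Their mean was 2.12 times lower at 8% sucrose. Beta-galactosidases summed to 666, 712 and 686 CPM at 3% sucrose and 376, 413 and 413 CPM at 8% sucrose, again without overlap and 1.72 times lower at 8% sucrose. Alpha-xylosidases summed to 58.8, 64.2 and 61.9 CPM at 3% sucrose and 25.9, 28 and 25.3 CPM at 8% sucrose, which was 2.34 times lower. Endoglucanases summed to 329.7, 356 and 345 CPM at 3% sucrose and 308, 272 and 247 CPM at 8% sucrose, a mean 1.25 times lower. Each of these 5 sums had p = 0.1 in the exact two-sided permutation test, the smallest p that 3 libraries against 3 can give, so no sum can pass 0.05. On the deposited FPKM, which divide by cluster length, 4 families kept their direction without overlap, and the endoglucanases overlapped at 138, 153 and 155 FPKM at 3% sucrose and 154, 129 and 122 FPKM at 8% sucrose (exact permutation p = 0.3).

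**Figure D1:**
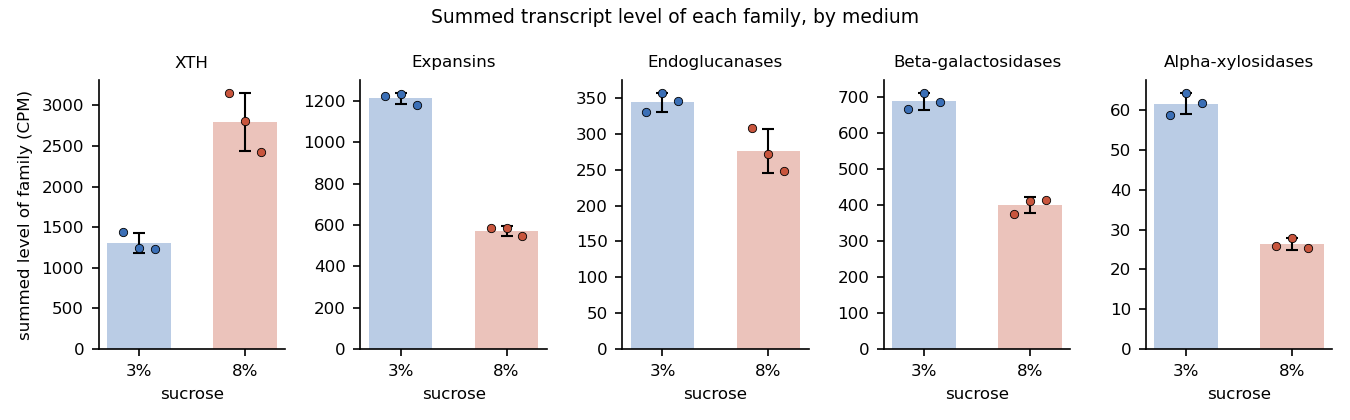
Summed transcript level of each family in CPM (y axis, from 0) at 3% and 8% sucrose. Points are libraries, bars are means and error bars are SD over 3 libraries. The XTH libraries at 8% sucrose sit between 2427 and 3147 CPM, above all libraries at 3% sucrose, and in the other panels the libraries at 8% sucrose lie lower.

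Single clusters moved in both directions in 4 families, and in the alpha-xylosidases only by 1 weakly called rise. A cluster could be tested only with enough counts in either medium: 196 of the 318 members passed this filter, and a member present in 1 medium passed it only through that medium. The 122 untested members had at most 140 counts in any library. Of the 196 tested, 53 rose and 72 fell at 8% sucrose by edgeR's quasi-likelihood test (adjusted p under 0.05 over all 85043 tested clusters), and 71 did not pass. That is 27.04% rising and 36.73% falling, where 29.1% of all tested clusters rose, 25.6% fell and 54.6% did either. Called changes of at least 2-fold numbered 46 upward and 63 downward, against 25.7% and 20.1% of all tested clusters. The libraries of the media did not overlap for 61 members that were higher and 82 that were lower at 8% sucrose, against 36.7% and 30.9% of all tested clusters and 67.6% in either direction. The median log2 fold change was -0.03 among tested members and 0.19 among all tested clusters. By family, 16 XTH clusters rose and 17 fell of 39 tested. Of 29 tested expansin clusters 6 rose and 8 fell, but without replicate 2 at 8% sucrose 3 rose and with DESeq2 10 rose. Of 41 tested endoglucanase clusters 12 rose and 16 fell, and of 83 tested beta-galactosidase clusters 18 rose and 30 fell. Of 4 tested alpha-xylosidase clusters 1 rose and 1 fell, and that rise was lost in 9 of 12 alternatives. The authors' deposited table calls 62 members higher and 77 lower at 8% sucrose. It gives the same direction for 115 of the 125 calls made here, the opposite for 0, and no call for 10.

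**Figure D2:**
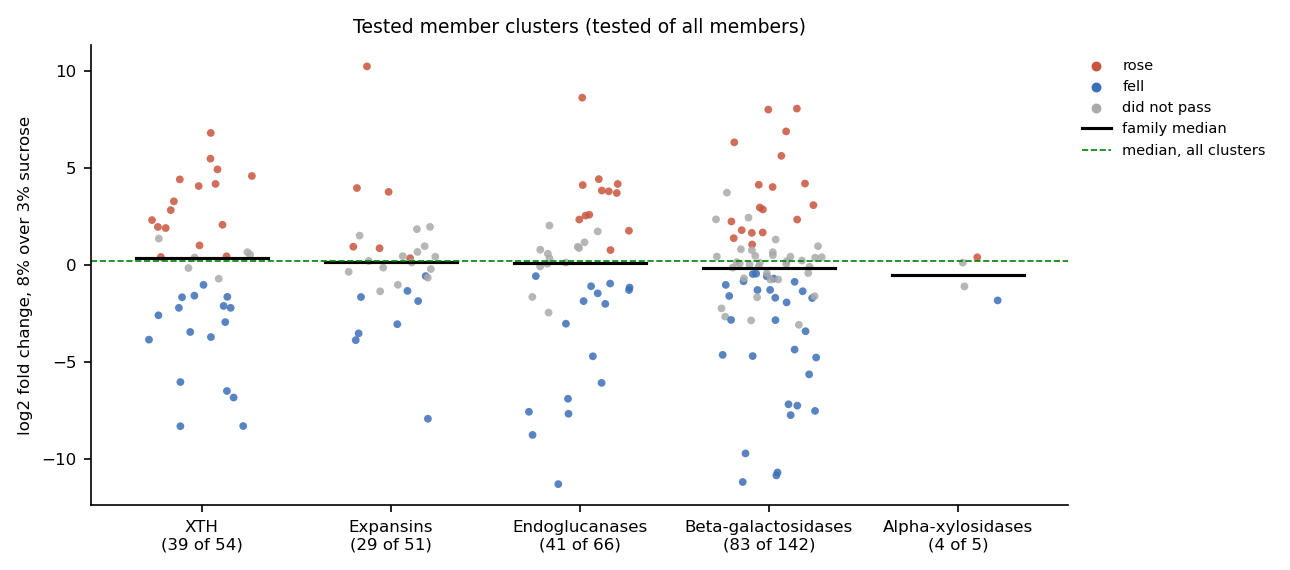
Log2 fold change of each tested member cluster, 8% over 3% sucrose (y axis), by family (x axis, with the number tested of all members). Points are clusters coloured by the edgeR call, black lines are family medians and the dashed line is the median of all tested clusters (0.19). Every family has points on both sides of 0, from -11.3 to 10.2, while the medians lie between -0.50 and 0.38.

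Reads of a gene can be divided among several clusters with the same protein hit, so counts were also summed by Swiss-Prot protein and tested again. Of the 78 proteins 61 could be tested: 22 rose, 29 fell and 10 did not pass. Of all tested Swiss-Prot proteins 29.3% rose and 49.0% fell in that fit, with a median log2 fold change of -0.30. Below, a protein name means the sum over its clusters, and the name is that of the best hit, which does not make the cactus gene its ortholog. Names without a species are hits to Arabidopsis proteins.

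Among XTHs, all 13 tested proteins passed, 8 upward and 5 downward. The soybean XTH2 hit held the largest share of XTH transcripts at 3% sucrose, and XTH22, XTH23 and XTH25 held nearly all of it at 8% sucrose. XTH22 of Arabidopsis is the touch-induced TCH4 protein, and XTH23 and XTH25 are close relatives of it. XTH23 (Q38910) was at 437, 319 and 332 CPM at 3% sucrose and 1274, 1205 and 1027 CPM at 8% sucrose. Every library at 8% sucrose was above those at 3% sucrose, 3.22-fold by the means, with a log2 fold change of 1.71 (SE 0.13, edgeR adjusted p = 1.70e-05). XTH22 (Q38857) was at 241, 161 and 169 CPM at 3% sucrose and 1271, 1083 and 923 CPM at 8% sucrose, a 5.74-fold rise of the mean without overlap, with a log2 fold change of 2.54 (SE 0.18, edgeR adjusted p = 9.55e-06). XTH25 (Q38907) was scarce at 3% sucrose, with 11.3, 6.37 and 7.37 CPM at 3% sucrose and 428, 354 and 322 CPM at 8% sucrose. The 44.1-fold rise had a log2 fold change of 5.49 (SE 0.23, edgeR adjusted p = 5.07e-07), and 1 cluster held over 99% of it in both media. Together the 3 proteins took 42.7% ± 4.42 of the summed XTH level at 3% sucrose and 94% ± 0.404 at 8% sucrose (SD, n = 3 each).

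The soybean XTH2 hit (P35694), whose soybean protein is the brassinosteroid-regulated BRU1, went the other way. It was at 596, 588 and 560.4 CPM at 3% sucrose and 6.37, 7.19 and 7.06 CPM at 8% sucrose. No library at 8% sucrose came near those at 3% sucrose: the mean was 84.5 times lower, with a log2 fold change of -6.38 (SE 0.069, edgeR adjusted p = 7.34e-09), and all 5 of its tested clusters fell. Cluster-2051.10043 (1324 bp) was the XTH cluster that fell with the smallest adjusted p, at 566, 556 and 525 CPM at 3% sucrose and 4.68, 4.69 and 5.05 CPM at 8% sucrose and with a log2 fold change of -6.84 (SE 0.068, edgeR adjusted p = 1.51e-07). The share of the soybean XTH2 hit in the XTH level went from 44.7% ± 3.1 to 0.250% ± 0.0446 (SD, n = 3 each). With these 4 proteins set aside, a choice made after their values were seen, the remaining XTH clusters summed to 164 ± 4.17 CPM at 3% sucrose and 159 ± 10.6 CPM at 8% sucrose, and their libraries overlapped. On the length-corrected scale the order of the proteins also differed between the media. The soybean XTH2 hit led at 3% sucrose and was at 549.5, 548 and 540.1 FPKM at 3% sucrose and 12.4, 11.7 and 12.6 FPKM at 8% sucrose. XTH22 led at 8% sucrose and was at 206, 132 and 144 FPKM at 3% sucrose and 1221, 1023 and 906 FPKM at 8% sucrose. XTH23 followed with 279, 178 and 194 FPKM at 3% sucrose and 956, 846 and 677 FPKM at 8% sucrose, and its highest library at 8% sucrose exceeded the lowest of XTH22 there.

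**Figure D3:**
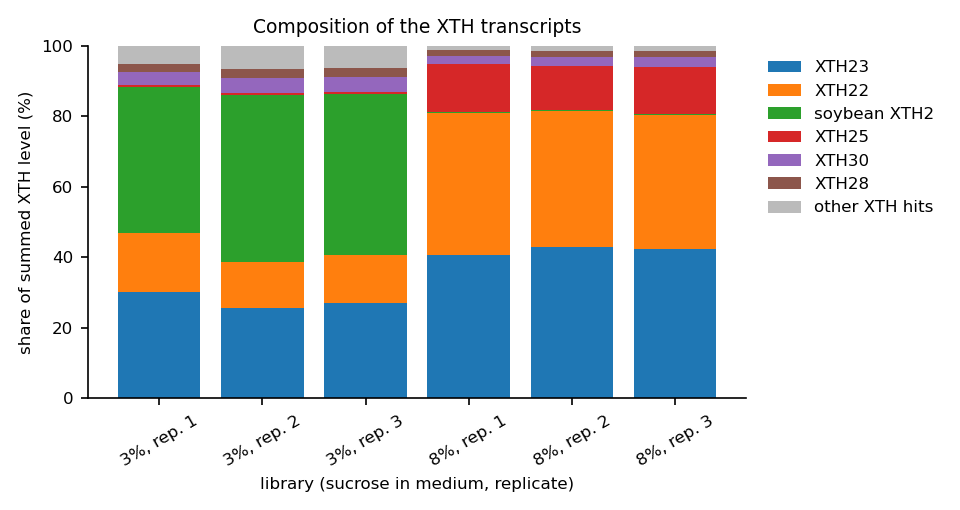
Share of the summed XTH level (y axis, percent of the CPM of all XTH clusters) held by each protein hit in each library (x axis). The soybean XTH2 hit holds between 41.2% and 47.3% in the libraries at 3% sucrose and under 0.3% at 8% sucrose, where XTH22, XTH23 and XTH25 together hold 94.0% on average.

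The less abundant XTHs divided as well. XTH33 (Q8LC45), a form predicted in Arabidopsis to be anchored in the plasma membrane, was at 46.1, 49.6 and 48.4 CPM at 3% sucrose and 5.64, 6.24 and 5.66 CPM at 8% sucrose. It was 8.21 times lower without overlap, with a log2 fold change of -3.02 (SE 0.072, edgeR adjusted p = 4.30e-08). XTH9 (Q8LDW9), expressed in growing Arabidopsis stems, was at 18.9, 20.0 and 17.9 CPM at 3% sucrose and 1.24, 1.67 and 1.45 CPM at 8% sucrose and fell with a log2 fold change of -3.68 (SE 0.13, edgeR adjusted p = 2.57e-07). XTH5 (Q9XIW1) was at 7.65, 7.55 and 7.95 CPM at 3% sucrose and 0.0776, 0.109 and 0.155 CPM at 8% sucrose, close to absent at 8% sucrose, and fell with a log2 fold change of -6.02 (SE 0.25, edgeR adjusted p = 4.97e-07). These 3 proteins fell between 8.21-fold and 67.6-fold by their means. XTH14 (Q9ZSU4), known from Arabidopsis roots, showed the reverse pattern with 0.971, 0.758 and 0.85 CPM at 3% sucrose and 21.1, 20.1 and 16.6 CPM at 8% sucrose. Its 22.4-fold rise had a log2 fold change of 4.50 (SE 0.16, edgeR adjusted p = 2.22e-07). XTH6 (Q8LF99) was at 3.0, 2.01 and 2.77 CPM at 3% sucrose and 13.1, 13.4 and 14.2 CPM at 8% sucrose and rose with a log2 fold change of 2.41 (SE 0.16, edgeR adjusted p = 7.60e-06). XTH14 and XTH6 rose from low levels, and neither overlapped between the media. XTH30 (Q38908), among the XTHs that form a separate branch of the family, was at 53.5, 54.4 and 52.5 CPM at 3% sucrose and 73.8, 70.9 and 69.3 CPM at 8% sucrose. That rise was small and free of overlap, with a log2 fold change of 0.43 (SE 0.050, edgeR adjusted p = 1.44e-04). XTH28 (Q38909), needed for stamen filament growth in Arabidopsis, was at 29.2, 32.4 and 30.6 CPM at 3% sucrose and 52.4, 46.3 and 38.7 CPM at 8% sucrose and rose with a log2 fold change of 0.59 (SE 0.11, edgeR adjusted p = 0.00188). XTH20 rose and XTH8 fell at means under 1 CPM, while the XTH27, XTH31 and XTH32 hits had too few counts to be tested.

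Expansin transcripts were dominated by a single protein. Expansin-like A1 (Q9LZT4) shares the expansin fold, but wall-loosening activity of the expansin-like A group has not been established. It was at 941, 939 and 912 CPM at 3% sucrose and 301, 316 and 298 CPM at 8% sucrose. The 3 libraries at 8% sucrose lay close together and were 3.05 times lower by the mean, with a log2 fold change of -1.59 (SE 0.044, edgeR adjusted p = 7.04e-08), and all 3 tested clusters fell. Its largest cluster, Cluster-2051.75536 (1284 bp), was at 810.5, 808 and 789 CPM at 3% sucrose and 251, 266 and 246 CPM at 8% sucrose and fell with a log2 fold change of -1.66 (SE 0.047, edgeR adjusted p = 1.25e-06). This cluster alone held 66.2% of the expansin level at 3% sucrose and 44.5% at 8% sucrose. All expansin clusters outside the Expansin-like A1 hit summed to 282 ± 11.9 CPM at 3% sucrose and 267 ± 18.5 CPM at 8% sucrose, with overlapping libraries.

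The alpha-expansins, the group with known wall-loosening activity, differed less in sum and divided by protein. Their 36 clusters summed to 249.9 ± 18.4 CPM at 3% sucrose and 213 ± 10.1 CPM at 8% sucrose (mean ± SD, n = 3 each), without overlap. On the length-corrected scale the sums were 255, 284 and 268 FPKM at 3% sucrose and 279, 266 and 264 FPKM at 8% sucrose, and they overlapped. Expansin-A6 (Q38865), the most abundant of them, was at 146, 177 and 161 CPM at 3% sucrose and 110.1, 117 and 114 CPM at 8% sucrose. It was 1.42 times lower by the mean without overlap, with a log2 fold change of -0.49 (SE 0.071, edgeR adjusted p = 5.39e-04). On the length-corrected scale it was at 169, 201 and 187 FPKM at 3% sucrose and 144, 159 and 164 FPKM at 8% sucrose, second to Expansin-like A1 in both media. Expansin-A4 (O48818) was at 48.3, 56.5 and 50.5 CPM at 3% sucrose and 49.5, 50.5 and 49 CPM at 8% sucrose, with overlapping libraries and a log2 fold change of -0.04 (SE 0.066, edgeR adjusted p = 0.596), so it did not pass. Expansin-A1 (Q9C554), which acts in Arabidopsis guard cells, was at 7.12, 7.89 and 6.16 CPM at 3% sucrose and 16.8, 14 and 13.8 CPM at 8% sucrose and rose with a log2 fold change of 1.09 (SE 0.13, edgeR adjusted p = 1.95e-04). Its cluster Cluster-2051.55075, the expansin cluster that rose with the smallest adjusted p, was at 1.51, 0.885 and 0.677 CPM at 3% sucrose and 15.4, 13.3 and 13.1 CPM at 8% sucrose. That cluster rose with a log2 fold change of 3.76 (SE 0.30, edgeR adjusted p = 7.72e-05). Both the protein and this cluster were higher in every library at 8% sucrose. Of the 4 tested clusters of this hit only 1 rose, while 2 fell and 1 did not pass. The largest cluster held 93.6% of the hit at 8% sucrose. Expansin-A8 (O22874) was at 0.157, 0.0606 and 0.164 CPM at 3% sucrose and 1.85, 2.05 and 1.88 CPM at 8% sucrose and rose with a log2 fold change of 3.98 (SE 0.43, edgeR adjusted p = 1.10e-04). Other scarce alpha-expansins fell. Expansin-A20 (Q9SZM1) went from a mean of 1.26 to 0.43 CPM (log2 fold change -1.52, SE 0.36, edgeR adjusted p = 0.00646). The rice Expansin-A16 hit (Q69XV9) went from 0.621 to 0.178 CPM (log2 fold change -1.79, SE 0.56, edgeR adjusted p = 0.0234).

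Expansin-A12 (Q9LDJ3) was all but absent at 3% sucrose. Its tested cluster, Cluster-2051.36677, had no counts in the 3 libraries at 3% sucrose and 5.28, 3.64 and 3.24 CPM at 8% sucrose. Against a floor of 3 counts in each library at 3% sucrose, averaged over the medium, this is at least 48.9-fold higher (edgeR adjusted p = 0.000264), a bound that covers counting error only. Other expansin calls were less firm. Expansin-like A3 (Q9LZT5) was at 31.6, 12 and 13.4 CPM at 3% sucrose and 42.7, 40.8 and 28.2 CPM at 8% sucrose, where replicate 1 at 3% sucrose lay above replicate 3 at 8% sucrose. Its rise had a log2 fold change of 0.99 (SE 0.36, edgeR adjusted p = 0.0418), and the log2 fold change was 1.52 without replicate 1 at 3% sucrose, while the call was lost without replicates 2 or 3 at 3% sucrose and without replicates 1 or 2 at 8% sucrose. It was also lost under RLE scaling, under DESeq2 and with hits limited to an E-value of 1e-20. Expansin-like A2 (Q9SVE5) was at 11.7, 7.37 and 7.01 CPM at 3% sucrose and 13.9, 16.2 and 12.2 CPM at 8% sucrose and rose with a log2 fold change of 0.72 (SE 0.21, edgeR adjusted p = 0.0177), a call lost when any of the same 4 libraries was left out. The rice Expansin-A29 hit (Q4PR39) was at 2.1, 0.626 and 0.332 CPM at 3% sucrose and 6.08, 3.37 and 2.35 CPM at 8% sucrose and rose with a log2 fold change of 1.98 (SE 0.66, edgeR adjusted p = 0.0286). That call too was lost when any of these 4 libraries was left out, and the log2 fold change was 2.99 without replicate 1 at 3% sucrose. Expansin-B3 (Q9M0I2), the only tested beta-expansin, was at 4.41, 3.6 and 3.92 CPM at 3% sucrose and 2.9, 2.54 and 2.53 CPM at 8% sucrose and fell with a log2 fold change of -0.56 (SE 0.18, edgeR adjusted p = 0.0232), lost without replicate 1 at 3% sucrose, without replicates 2 or 3 at 8% sucrose and without the count filter. Expansin-A13 was at 10.9, 10.9 and 11.8 CPM at 3% sucrose and 9.99, 8.89 and 10.7 CPM at 8% sucrose and did not pass (edgeR adjusted p = 0.197). Expansin-A11 (Q9LNU3) was at 17.5, 15.2 and 12.7 CPM at 3% sucrose and 21.8, 10.4 and 7.77 CPM at 8% sucrose and did not pass either, but without replicate 1 at 8% sucrose its log2 fold change was -0.75 (edgeR adjusted p = 0.0121).

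Endoglucanases were led by different proteins in the 2 media. The rice Endoglucanase 12 hit (Q7XUK4) was at 38.9, 41.7 and 35.4 CPM at 3% sucrose and 175, 139 and 107 CPM at 8% sucrose. It rose 3.63-fold without overlap, with a log2 fold change of 1.88 (SE 0.17, edgeR adjusted p = 3.78e-05), although the libraries at 8% sucrose spread widely. Cluster-2051.88512 (2488 bp) held over 90% of this hit in both media and rose from 37.4 to 127 CPM (log2 fold change 1.76, SE 0.17, edgeR adjusted p = 2.28e-04). Without the whole Endoglucanase 12 hit the endoglucanase clusters summed to 305 ± 12.5 CPM at 3% sucrose and 136 ± 4.39 CPM at 8% sucrose, 2.25 times lower. Endoglucanase 6 (Q42059) was at 75.9, 86.5 and 74.8 CPM at 3% sucrose and 34.4, 38 and 42.6 CPM at 8% sucrose and fell with a log2 fold change of -1.03 (SE 0.091, edgeR adjusted p = 3.39e-05). The rice Endoglucanase 3 hit (Q8LQ92) was at 78.9, 79.9 and 97.9 CPM at 3% sucrose and 9.19, 8.18 and 8.98 CPM at 8% sucrose, 9.75 times lower by the mean and with a log2 fold change of -3.27 (SE 0.11, edgeR adjusted p = 1.44e-07). Its cluster Cluster-2051.116936 fell with the smallest adjusted p among endoglucanase clusters, from 74.6 to 2.85 CPM (log2 fold change -4.71, SE 0.13, edgeR adjusted p = 1.16e-06). Another of its clusters, Cluster-2051.119978, was at 7.70, 8.51 and 9.26 CPM at 3% sucrose and had 0 counts in every library at 8% sucrose, at least 107-fold lower (edgeR adjusted p = 3.71e-05). Of the 5 tested clusters of this rice hit 3 fell and 2 rose.

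Endoglucanase 25 (Q38890) is KORRIGAN in Arabidopsis, the membrane-anchored enzyme of cellulose synthesis. It was at 61.6, 68 and 63.7 CPM at 3% sucrose and 27.8, 29.2 and 26.2 CPM at 8% sucrose. It was 2.33 times lower at 8% sucrose without overlap, with a log2 fold change of -1.20 (SE 0.063, edgeR adjusted p = 1.73e-06). The Endoglucanase 25 and rice Endoglucanase 12 hits summed to a mean of 103 CPM at 3% sucrose and 168 CPM at 8% sucrose. That sum was 1.63-fold higher without overlap, and of the 12 tested clusters 7 rose and 3 fell. Whether the rice Endoglucanase 12 hit is also a membrane-anchored enzyme was not examined. Endoglucanase 8 (Q9CAC1) was scarce at 8% sucrose, at 27.2, 32 and 26.9 CPM at 3% sucrose and 0.0259, 0.137 and 0.284 CPM at 8% sucrose, and fell with a log2 fold change of -7.54 (SE 0.34, edgeR adjusted p = 6.98e-07). The Arabidopsis Endoglucanase 3 hit (Q2V4L8) behaved opposite to its rice namesake, at 21.1, 19.7 and 19.3 CPM at 3% sucrose and 34.3, 33 and 34.4 CPM at 8% sucrose, and rose with a log2 fold change of 0.78 (SE 0.064, edgeR adjusted p = 2.13e-05). These 2 hits share a number by naming, and no closer relation was examined. Endoglucanase 17 (O81416) was at 10.1, 11.6 and 12.4 CPM at 3% sucrose and 6.93, 6.32 and 7.81 CPM at 8% sucrose and fell with a log2 fold change of -0.68 (SE 0.13, edgeR adjusted p = 0.00227). Endoglucanase 5 (Q9M995) was at 0.147, 0.235 and 0.0823 CPM at 3% sucrose and 1.86, 1.8 and 2.04 CPM at 8% sucrose, scarce in both media, and rose with a log2 fold change of 3.60 (SE 0.41, edgeR adjusted p = 1.47e-04). Neither of these 2 proteins overlapped between the media. Endoglucanase 2 was at 5.7, 5.35 and 6.24 CPM at 3% sucrose and 8.56, 6.58 and 9.58 CPM at 8% sucrose and rose (edgeR adjusted p = 0.0213), a call kept without replicate 2 at 8% sucrose and lost when any other library was left out and under DESeq2. Endoglucanase 10 was at 7.36, 7.95 and 5.91 CPM at 3% sucrose and 8.37, 7.53 and 6.82 CPM at 8% sucrose, overlapping, and did not pass (edgeR adjusted p = 0.522). Length-corrected, Endoglucanase 12 led the family at 8% sucrose with 16.4, 17.8 and 15.7 FPKM at 3% sucrose and 85.2, 66.8 and 52.3 FPKM at 8% sucrose. At 3% sucrose Endoglucanase 6 had the highest mean with 30.8, 34.9 and 31.3 FPKM at 3% sucrose and 15.6, 17 and 19.7 FPKM at 8% sucrose, a range that overlapped those of Endoglucanase 25 and of the rice Endoglucanase 3 hit.

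Of 18 tested beta-galactosidase proteins 10 fell, 3 rose and 5 did not pass, where 49.0% of all tested Swiss-Prot proteins fell and 29.3% rose. The carnation putative beta-galactosidase hit (Q00662), whose carnation protein is the senescence-related SR12, was the most abundant. It was at 192, 198 and 198 CPM at 3% sucrose and 144, 156 and 157 CPM at 8% sucrose. The difference was small but free of overlap, with a log2 fold change of -0.35 (SE 0.049, edgeR adjusted p = 4.86e-04). This was near the median of all tested Swiss-Prot proteins, -0.30. On the length-corrected scale the libraries of this hit overlapped, at 84, 84.5 and 85.5 FPKM at 3% sucrose and 74.4, 81.8 and 86.9 FPKM at 8% sucrose. Cluster-2051.108928 held most of this hit and fell from 184 to 134 CPM (log2 fold change -0.45, SE 0.051, edgeR adjusted p = 4.24e-04). Beta-galactosidase 1 (Q9SCW1) was the next most abundant at 3% sucrose and scarce at 8% sucrose, with 109.9, 112 and 109 CPM at 3% sucrose and 6.57, 6.31 and 7.13 CPM at 8% sucrose. It was 16.5 times lower with a log2 fold change of -4.03 (SE 0.064, edgeR adjusted p = 1.16e-08), and its 4 tested clusters all fell, among them Cluster-2051.20234 from 60.3 to 2.32 CPM (log2 fold change -4.70, SE 0.13, edgeR adjusted p = 1.11e-06). The beta-galactosidase clusters other than this hit still summed to 1.47 times less at 8% sucrose, 578 ± 22 CPM at 3% sucrose and 394 ± 21 CPM at 8% sucrose.

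The other beta-galactosidase proteins went both ways. Beta-galactosidase 17 (Q93Z24) was at 79.2, 83.5 and 76.8 CPM at 3% sucrose and 40.1, 43.7 and 43.5 CPM at 8% sucrose and fell with a log2 fold change of -0.89 (SE 0.057, edgeR adjusted p = 5.25e-06). Beta-galactosidase 9 (Q9SCV3) was at 65.9, 73.3 and 70.0 CPM at 3% sucrose and 37.7, 40.9 and 40.4 CPM at 8% sucrose and fell with a log2 fold change of -0.80 (SE 0.060, edgeR adjusted p = 1.30e-05). The rice Beta-galactosidase 3 hit (Q5N8X6) was at 65.8, 71.1 and 72 CPM at 3% sucrose and 32, 37.9 and 37.5 CPM at 8% sucrose and fell with a log2 fold change of -0.94 (SE 0.076, edgeR adjusted p = 1.99e-05). These 3 proteins lost between 1.76-fold and 1.95-fold of their mean level, each without overlap. The tomato beta-galactosidase hit and Beta-galactosidase 10 fell further. The tomato hit (P48980) was at 26.9, 31.8 and 31.4 CPM at 3% sucrose and 1.3, 2.49 and 2.62 CPM at 8% sucrose and fell with a log2 fold change of -3.80 (SE 0.23, edgeR adjusted p = 3.80e-06). Beta-galactosidase 10 (Q9FN08), the main beta-galactosidase acting on xyloglucan in Arabidopsis, was at 4.79, 5.55 and 4.97 CPM at 3% sucrose and 0.751, 0.602 and 0.698 CPM at 8% sucrose and fell with a log2 fold change of -2.88 (SE 0.20, edgeR adjusted p = 9.23e-06). With only hits of E-value 1e-20 or lower its log2 fold change was -1.8. Its 5 tested clusters were 271 to 1176 bp long, and no Pfam entry was given for them. On the length-corrected scale the difference was smaller, at 42.9, 50.6 and 43.7 FPKM at 3% sucrose and 19.2, 22 and 19.9 FPKM at 8% sucrose.

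Beta-galactosidase 8 (Q9SCV4) went the other way, at 9.03, 9.4 and 8.8 CPM at 3% sucrose and 52.2, 56.7 and 55.3 CPM at 8% sucrose. Its 6.03-fold rise had a log2 fold change of 2.61 (SE 0.063, edgeR adjusted p = 4.55e-08) and no overlap. Cluster-2051.54463 led this rise, from 3.02 to 25.5 CPM (log2 fold change 3.08, SE 0.12, edgeR adjusted p = 3.76e-06). Beta-galactosidase 12 (Q9SCV0) was at 0.181, 0.267 and 0.0839 CPM at 3% sucrose and 2.1, 2.48 and 2.68 CPM at 8% sucrose and rose with a log2 fold change of 3.79 (SE 0.41, edgeR adjusted p = 1.11e-04). On the length-corrected scale this hit overlapped, at 0.9, 26.1 and 0.11 FPKM at 3% sucrose and 3.09, 3.61 and 15.9 FPKM at 8% sucrose. Only 1 of its 3 clusters was tested, and that cluster was at 0.2, 0.28 and 0.11 FPKM at 3% sucrose and 3.09, 3.61 and 3.99 FPKM at 8% sucrose. The Arabidopsis Beta-galactosidase 3 hit (Q9SCV9) was at 16.9, 18.6 and 16.1 CPM at 3% sucrose and 21.7, 21.1 and 22.3 CPM at 8% sucrose and rose slightly (log2 fold change 0.35, SE 0.077, edgeR adjusted p = 0.00456), a call lost without replicate 3 at 3% sucrose and under DESeq2. Beta-galactosidase 6 (Q9FFN4), which modifies seed coat mucilage in Arabidopsis, was at 8.24, 8.36 and 8.31 CPM at 3% sucrose and 7.38, 8.01 and 8.42 CPM at 8% sucrose and did not pass (edgeR adjusted p = 0.705). A hit to a bacterial beta-galactosidase (A5F5U6) was at 72.2, 91.5 and 75 CPM at 3% sucrose and 24.7, 32.4 and 29.6 CPM at 8% sucrose and fell with a log2 fold change of -1.45 (SE 0.12, edgeR adjusted p = 2.42e-05). Its clusters had their best NR database hits in beet, a plant of the same order as cacti.

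**Figure D4:**
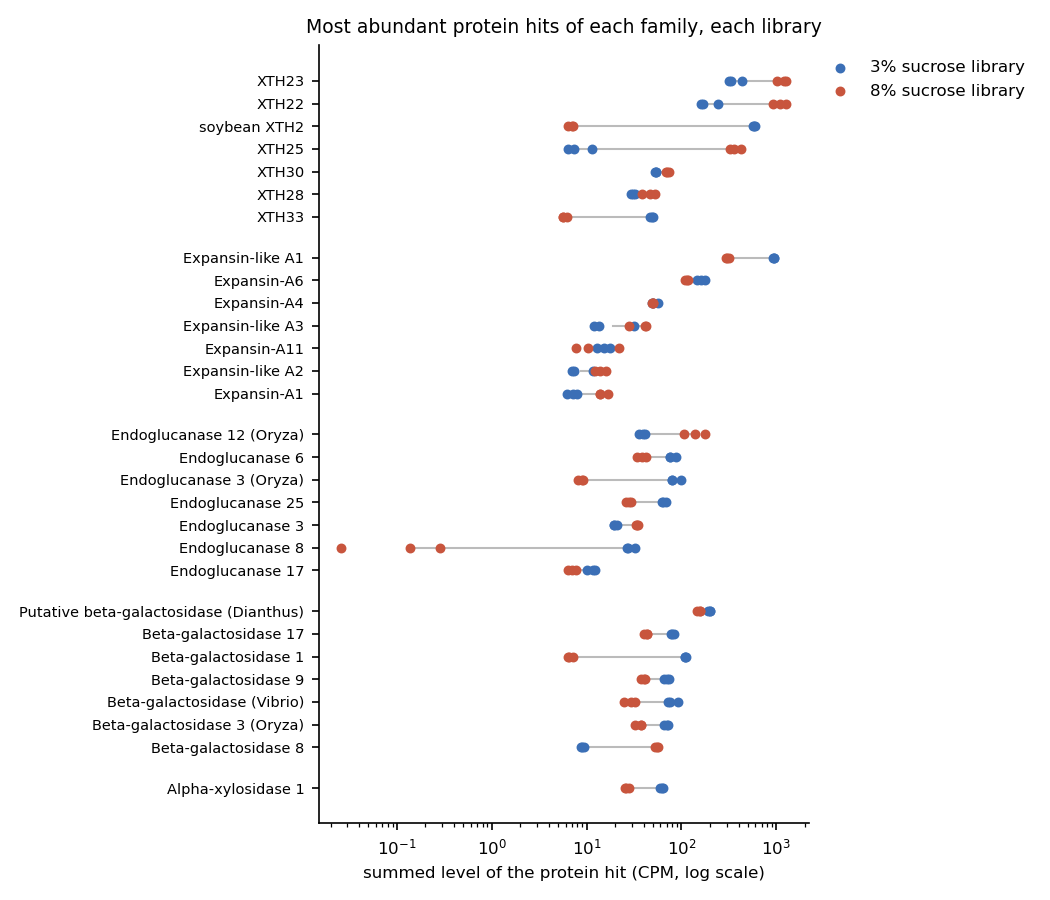
Level of the most abundant protein hits of each family (y axis) in every library, in CPM on a log scale (x axis). Blue points are libraries at 3% sucrose, red points are libraries at 8% sucrose and grey lines join the means. The soybean XTH2 hit, Beta-galactosidase 1 and Endoglucanase 8 lie far to the left at 8% sucrose, and XTH25 and Beta-galactosidase 8 far to the right.

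Alpha-xylosidase 1 (Q9S7Y7), the enzyme that takes xylose from the ends of xyloglucan fragments in Arabidopsis, held nearly all of its family. It was at 58.8, 64.1 and 61.6 CPM at 3% sucrose and 25.7, 27.9 and 25.1 CPM at 8% sucrose. It was 2.35 times lower at 8% sucrose without overlap, with a log2 fold change of -1.21 (SE 0.062, edgeR adjusted p = 1.48e-06). Cluster-2051.19083 (3471 bp) was at 49.7, 54.7 and 50.2 CPM at 3% sucrose and 14, 15.8 and 13.7 CPM at 8% sucrose and fell with a log2 fold change of -1.83 (SE 0.085, edgeR adjusted p = 7.18e-06). Cluster-2051.91233 (3266 bp) was at 7.56, 7.0 and 7.65 CPM at 3% sucrose and 9.08, 10.8 and 9.23 CPM at 8% sucrose and rose with a log2 fold change of 0.39 (SE 0.12, edgeR adjusted p = 0.0343). This rise was lost under RLE scaling, under DESeq2, without the count filter and when any library was left out other than replicate 1 at 8% sucrose. The other member protein (P31434), a bacterial alpha-xylosidase hit with 1 cluster, had too few counts to be tested.

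Clusters that share a protein hit often went opposite ways. Of 29 member proteins with at least 2 called clusters, 16 had calls in both directions (55.2%), where the share among all such Swiss-Prot proteins was 48.2%. XTH22 had 3 rising and 3 falling clusters. Its leading cluster, Cluster-2051.78918, was at 136, 80.1 and 83.6 CPM at 3% sucrose and 1115, 951 and 832 CPM at 8% sucrose and rose with a log2 fold change of 3.28 (SE 0.24, edgeR adjusted p = 5.18e-05). Cluster-2051.73359 of the same hit was at 12.9, 7.04 and 7.73 CPM at 3% sucrose and 0.801, 0.73 and 0.362 CPM at 8% sucrose and fell with a log2 fold change of -3.85 (SE 0.39, edgeR adjusted p = 2.66e-04). Endoglucanase 25 also had 3 of each: Cluster-2051.88728 fell from 42.2 to 18.8 CPM, and Cluster-2051.102971 rose from 0.179 to 2.65 CPM (log2 fold change 3.83, SE 0.35, edgeR adjusted p = 1.53e-04). The rice Endoglucanase 3 hit had 2 rising and 3 falling clusters, and Beta-galactosidase 17 had 2 rising and 2 falling. XTH23 had 5 rising clusters and 1 falling, and Cluster-2051.78877, the most abundant XTH cluster, was at 255, 239.6 and 245 CPM at 3% sucrose and 932, 1000 and 937 CPM at 8% sucrose. It rose with a log2 fold change of 1.96 (SE 0.050, edgeR adjusted p = 9.37e-07). The falling Cluster-2051.83245 was at 15.7, 8.92 and 10.3 CPM at 3% sucrose and 4.49, 2.04 and 0.992 CPM at 8% sucrose (log2 fold change -2.21, SE 0.53, edgeR adjusted p = 0.0120), a call lost without replicate 2 at 8% sucrose. Cluster-2051.77646, also of XTH23, was at 66.9, 32.6 and 34.7 CPM at 3% sucrose and 189, 110.3 and 43.6 CPM at 8% sucrose and did not pass (edgeR adjusted p = 0.0711), but passed without replicate 3 at 8% sucrose (edgeR adjusted p = 0.0152). Expansin-A4 did not pass in sum while Cluster-2051.35310 fell from 20.5 to 5.62 CPM and Cluster-2051.35309 rose from 25.3 to 32.1 CPM, the latter lost without replicates 1 or 3 at 3% sucrose, without replicates 2 or 3 at 8% sucrose and under DESeq2. Whether such clusters are gene copies, alleles or parts of the same transcript was not tested, and reads of near-identical copies may be divided between them.

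**Figure D5:**
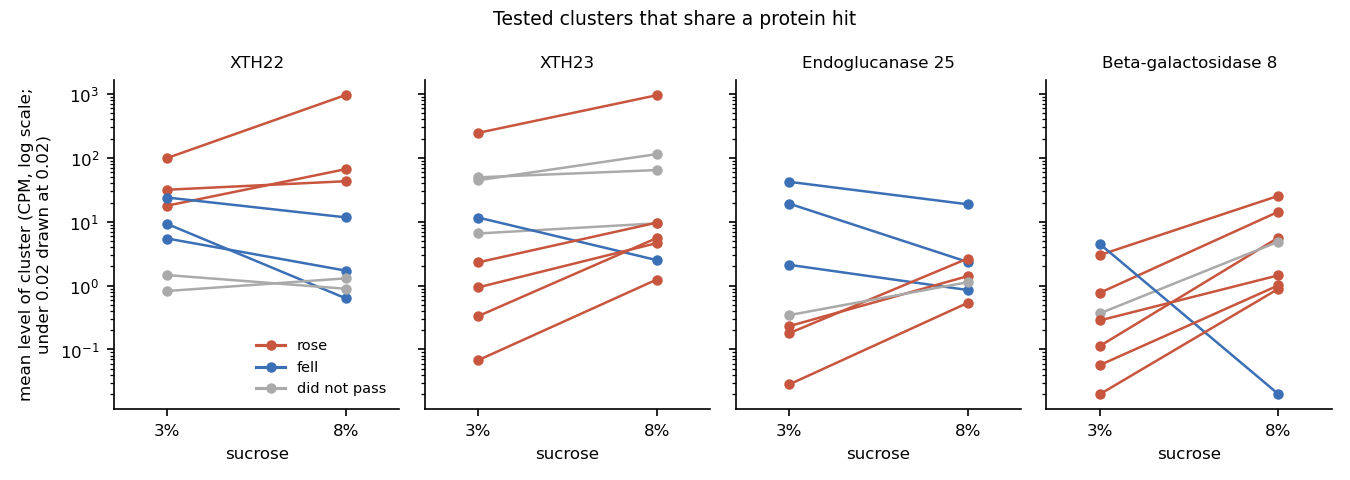
Mean level of each tested cluster at 3% and 8% sucrose (x axis) in CPM on a log scale (y axis, values under 0.02 drawn at 0.02) for 4 protein hits. Lines join the means of a cluster and are coloured by the edgeR call. XTH22 and Endoglucanase 25 each have 3 rising and 3 falling clusters, and Beta-galactosidase 8 has 6 rising and 1 falling.

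Members present in a single medium were few. At 3% sucrose 5 tested members had no counts in any library, and at 8% sucrose 12 had none, against 2.89% and 2.13% of all tested clusters. Those absent at 3% sucrose included a cluster of the rice Endoglucanase 3 hit, Cluster-2051.127099, at least 16-fold higher at 8% sucrose. Those absent at 8% sucrose included Cluster-13559.4 of Beta-galactosidase 6, at least 35.9-fold lower. They also included Cluster-2051.31723 of XTH28, at least 13.5-fold lower, although XTH28 rose in sum.

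Transcripts for making xyloglucan and for alpha-L-fucosidases were also followed. Of 34 tested clusters for xyloglucan synthesis (glucan synthases, xylosyl-, galactosyl- and fucosyltransferases) there were 9 that rose and 5 that fell, against the 29.1% and 25.6% of all tested clusters. Their sum was 721 ± 51.3 CPM at 3% sucrose and 826 ± 24.5 CPM at 8% sucrose (mean ± SD, n = 3 each). Without replicate 2 at 8% sucrose 3 fell. The most abundant proteins of this list overlapped between the media and did not pass. The rice xyloglucan glycosyltransferase 9 hit (Q6AU53) was at 231 ± 15.5 CPM at 3% sucrose and 244 ± 11.7 CPM at 8% sucrose (edgeR adjusted p = 0.222). Xyloglucan glycosyltransferase 12 (Q9ZQB9) was at 170 ± 19.8 CPM at 3% sucrose and 159 ± 3.72 CPM at 8% sucrose (edgeR adjusted p = 0.436). Xyloglucan 6-xylosyltransferase 3 (Q9LF80), which adds xylose to the glucan backbone, was at 53.3, 59.5 and 53.9 CPM at 3% sucrose and 137, 157 and 143 CPM at 8% sucrose and rose with a log2 fold change of 1.41 (SE 0.069, edgeR adjusted p = 1.17e-06). MUR3 (Q7XJ98), which adds galactose, was at 65.1, 74.6 and 61.2 CPM at 3% sucrose and 38.7, 41.4 and 39.9 CPM at 8% sucrose and fell with a log2 fold change of -0.73 (SE 0.077, edgeR adjusted p = 9.66e-05). A galactoside 2-alpha-L-fucosyltransferase (Q9SWH5), which adds the terminal fucose, was at 17.6, 20.6 and 17.2 CPM at 3% sucrose and 33.1, 35.3 and 34.5 CPM at 8% sucrose and rose with a log2 fold change of 0.91 (SE 0.081, edgeR adjusted p = 3.54e-05). Alpha-L-fucosidases, which remove fucose, had 0 rising and 4 falling clusters of 8 tested by edgeR, with 1 rising at an unadjusted p under 0.05 and 0 rising by DESeq2. Without replicate 3 at 8% sucrose 1 rose and 2 fell. Their sum was 46.9 ± 3.06 CPM at 3% sucrose and 23.8 ± 1.29 CPM at 8% sucrose (mean ± SD, n = 3 each). Alpha-L-fucosidase 1 was at 25.1 ± 1.5 CPM at 3% sucrose and 17.5 ± 1.4 CPM at 8% sucrose. Alpha-L-fucosidase 2 was at 21.8 ± 1.59 CPM at 3% sucrose and 6.28 ± 0.703 CPM at 8% sucrose. Whether both act on the fucose of xyloglucan was not examined.

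Plasma membrane proton pumps acidify the wall, and single pumps differed widely between the media. Among 31 tested pump clusters, 11 rose and 6 fell, against 29.1% and 25.6% of all tested clusters. The sum was 1304 ± 93.7 CPM at 3% sucrose and 821 ± 16.8 CPM at 8% sucrose (mean ± SD, n = 3 each). The *Nicotiana* Plasma membrane ATPase 1 hit (Q08435) was at 739.8, 834 and 747 CPM at 3% sucrose and 48.5, 57 and 56.2 CPM at 8% sucrose, a 14.3-fold lower mean with a log2 fold change of -3.83 (SE 0.084, edgeR adjusted p = 3.32e-08). ATPase 4 (Q9SU58) was at 6.33, 7.54 and 5.11 CPM at 3% sucrose and 331, 329 and 319 CPM at 8% sucrose, a 51.6-fold rise with a log2 fold change of 5.70 (SE 0.13, edgeR adjusted p = 3.88e-08). ATPase 11 (Q9LV11) was at 1.68, 1.84 and 1.48 CPM at 3% sucrose and 93.5, 98.1 and 89.3 CPM at 8% sucrose and rose with a log2 fold change of 5.83 (SE 0.088, edgeR adjusted p = 9.80e-09). The *Nicotiana* Plasma membrane ATPase 4 hit (Q03194) was abundant in both media, at 456, 526 and 472 CPM at 3% sucrose and 320.3, 336 and 327 CPM at 8% sucrose, and fell 1.48-fold by the mean, with a log2 fold change of -0.55 (SE 0.059, edgeR adjusted p = 1.07e-04). On the length-corrected scale that hit was at 147, 168 and 157 FPKM at 3% sucrose and 136, 139.5 and 138 FPKM at 8% sucrose, and ATPase 4 (Q9SU58) was at 2.89, 3.74 and 2.59 FPKM at 3% sucrose and 166, 166 and 168 FPKM at 8% sucrose.

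The deposited domain annotation was compared with the family names. The glycoside hydrolase family 16 domain was annotated in 53 of 54 XTH clusters and the XTH C-terminal domain in 35. The glycoside hydrolase family 9 domain was annotated in 62 of 66 endoglucanase clusters, and 6 endoglucanase clusters carried a carbohydrate-binding module. The KEGG name of another protein family, MLO, was given to 6 endoglucanase clusters. No Pfam entry was given for 37 of 51 expansin clusters. The Pfam domains of expansins, PF03330 and PF01357, were each annotated in 0 of 51, so all 51 rest on the protein hit alone. Among 142 beta-galactosidase clusters, 0 carried the glycoside hydrolase family 35 domain (PF01301), the catalytic domain of plant beta-galactosidases. Another glycoside hydrolase domain (PF02449) was annotated in 69 and a galactose-binding lectin domain in 32, and 32 had no Pfam entry. The best NR hit lay in beet for 202 of 318 members and in a cactus for 5, all beta-galactosidases. In 10 members, 9 beta-galactosidases and 1 alpha-xylosidase, the Swiss-Prot hit was a protein from outside the plants.

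The libraries held 35476032 to 41147265 expected counts, of which members took 0.340% at 3% sucrose and 0.426% at 8% sucrose. Markers of tracheary elements, the wall-thickened cells of xylem, moved with the media: of 11 tested clusters in a list of 19, 0 rose and 9 fell by edgeR, against 29.1% and 25.6% of all tested clusters, with 0 rising at an unadjusted p under 0.05 or by DESeq2. Their summed level ranged from 85.9 to 95.2 CPM at 3% sucrose and from 19.9 to 24.1 CPM at 8% sucrose, most of it from the rice cellulose synthase subunit 8 hit (Q84ZN6), a primary-wall subunit in rice, at 82.4, 84.8 and 76 CPM at 3% sucrose and 21, 21.6 and 18.2 CPM at 8% sucrose. NAC domain-containing protein 7, also on that list, was at 4.45, 4.55 and 4.41 CPM at 3% sucrose and 0.233, 0.246 and 0.103 CPM at 8% sucrose. NAC domain-containing protein 30 was at 2.56, 2.06 and 1.95 CPM at 3% sucrose and 0.129, 0.219 and 0.129 CPM at 8% sucrose. No cluster was annotated as a xylem cysteine proteinase or laccase-4, and laccase-17 was at or near 0. The part of this marker difference in the levels of the wall enzymes was not tested.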

How the data were processed

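Poly(A) RNA of the 6 libraries was sequenced as read pairs, per the labels' protocols. Because the NEBNext Ultra kit is unstranded, sense and antisense reads cannot be separated. FastQC, Trimmomatic 0.36, Bowtie2 and RSEM were used, per the submitters' processing notes. Which assembler and which differential test the authors used is not given in the sources used here. The authors deposited 1 table with an expected count per assembled cluster and library, per the file headers, in which 45.4% of values are not whole. They also deposited FPKM (per length of the cluster and size of the library, per the file headers), used here to compare levels between genes and as an alternative for the family sums. The authors' deposited log2 ratio and q-value served only to count their calls. Other deposited columns, per the file headers, give cluster length, protein hits with E-values, domains and the authors' call.

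Expected counts were rounded to whole numbers. edgeR 4.0.16 (R 4.3.3) removed 85927 of 170970 clusters with filterByExpr, scaled counts by TMM and fitted its quasi-likelihood test of 8% against 3% sucrose with no covariate and Benjamini-Hochberg adjustment at 0.05. The common biological coefficient of variation was 41.4%. A second fit used counts summed by Swiss-Prot protein, with clusters lacking a hit kept single. An SE is the log2 fold change divided by the square root of the F statistic. Sums of families were compared with an exact permutation test. DESeq2 1.42.0, other scaling, no filter, a replicate block, leaving out each library, an E-value limit of 1e-20 and plant hits only were alternatives. No library was a duplicate of another: chi-square values per cluster between replicates were 8.05 to 15.2. A count of 0 allows up to 3 counts, which is 0.0776 to 0.0882 CPM.

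Members and gene lists were chosen with earlier results of these data known. Named by rule were, per family, the rising and the falling cluster with the smallest adjusted p, the most abundant cluster and the 4 most abundant proteins, and over all families the 4 proteins with most clusters called in the less frequent direction. Other genes named were chosen after their values were seen. Figures were drawn with matplotlib 3.10.9.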

Additional observations from a re-analysis of the deposited data

How the results depend on the processing

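The family sums kept their direction in all 55 alternative values, and 233 of 248 alternative counts of calls stayed within 1.5 times. Rising expansin clusters numbered 10 with DESeq2 and 3 to 7 when single libraries were left out, against 6. The rising alpha-xylosidase cluster was lost (0) under RLE scaling, DESeq2, no filter and the replicate block, and 0 or 1 rose without single libraries. Falling xyloglucan synthesis clusters numbered 3 under the replicate block and 3 to 6 without single libraries, against 5, and alpha-L-fucosidase clusters numbered 0 to 1 rising and 2 to 3 falling, against 0 and 4. Summed by Swiss-Prot protein, 7 named clusters took the opposite sign of their own value: Cluster-2051.102971 -1.20, Cluster-2051.91233 -1.21, Cluster-2051.83245 1.71, Cluster-2051.73359 2.54, Cluster-2051.131151 2.41, Cluster-2051.35309 -0.04 and Cluster-2051.31723 0.59. Here other clusters of the same protein outweighed them. Without single libraries, Expansin-A11 ranged from -0.75 to 0.07, Cluster-2051.74091 of XTH23 from -0.24 to 0.93 and Endoglucanase 10 from -0.07 to 0.17, and the cause was not tested. Cluster-2051.31721 of XTH28 had a log2 fold change of 6.80, and 10.89 without replicate 3 at 3% sucrose, the only library of that medium with counts. Whether replicate numbers pair the libraries is not known, and correlations this weak cannot decide it. Same-numbered libraries correlated at 0.0711, 0.0149 and 0.0355, and libraries of different number at -0.0782 to 0.0486. Of the libraries at 3% sucrose, only replicate 2 correlated best with another number. With the replicate block 19752 clusters rose and 18877 fell, against 24723 and 21741, and 109 of 125 member calls were kept. In that fit 50 member clusters rose and 62 fell, and Cluster-2051.77646 of XTH23 passed (log2 fold change 1.21, edgeR adjusted p = 0.0368). With 3 libraries a medium and a variation of 41.4%, small changes of scarce members may go uncalled, and at this depth a count of 0 allows a level of up to 0.0882 CPM.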

Other observations

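Replicate 1 was the highest library in both media for 12 of the 18 tested clusters of the XTH22, XTH23 and XTH25 hits (66.7%). The same held for 2 of the 21 other tested XTH clusters, for 9 of 29 tested expansin clusters (31.0%) and for 14.2% of all tested clusters. Cluster-2051.74091 of XTH23 was at 83.2, 31.9 and 33.7 CPM at 3% sucrose and 109, 59.9 and 24.1 CPM at 8% sucrose, so the spread within each medium exceeded the difference between them. Libraries with the same number are not known to be linked, and the pattern was noticed in these data.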
